A study of Sus scrofa with 6 samples.

Results

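The swine leukocyte antigen (SLA) genes and their partners in antigen presentation were followed in renal cortex of pig kidneys after ischemia and cold storage. Members were the probes whose gene name on the array was 1 of 10 symbols, with hyphens ignored. Of these names, 8 had probes: the class I genes SLA-1, SLA-3, B2M and TAP1, with 23 probes, and the class II genes SLA-DRA, SLA-DMB, SLA-DOB and CD74, with 14 probes. They are 8 of the 4670 genes with a symbol on the array and 37 of its 43603 probes. No probe was named SLA-2 or TAP2. The rule also found a probe named SLA2, but its description is Src-like-adaptor 2, a T cell signalling adaptor outside the MHC, and it was set aside.

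Each sample was 1 kidney of a Large White pig aged 3 months, on 1 single-colour array. Ischemia kidneys (n = 3) were clamped for 60 min at 37 °C, flushed with cold University of Wisconsin preservation solution and kept at 4 °C for 24 h before sampling. Control kidneys (n = 3), from other pigs, were sampled and frozen at removal. No kidney was reperfused, and warm ischemia, flush and storage come as 1 sequence. The SLA types of the pigs are not given in the labels.

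MHC class I molecules show peptides from inside the cell to CD8 T cells and stand on nearly all nucleated cells. A polymorphic heavy chain binds the peptide in a groove formed by its α1 and α2 domains, B2M is the invariant light chain, and the TAP transporter brings peptides into the endoplasmic reticulum. Class II molecules show peptides from endocytosed material to CD4 T cells, mainly on dendritic cells, macrophages and B cells, while pig endothelium can carry them too. In kidney transplantation both classes are the main targets of the recipient's T cells and antibodies.

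The heavy chain genes of the pig are close paralogs, and several of their probes cannot tell them apart. The sequences of 6 of the 11 SLA-1 and SLA-3 probes are shown because probes of these gene names gave differences of opposite sign. As background, read as protein and set against known class I chains, the first comes from the α1 domain, the next from α2, the following pair from the junction of α2 and α3, then α3 and last the cytoplasmic tail. In the junction pair, capitals mark the bases at which the SLA-1 and the SLA-3 probe differ.
A_72_P625729 (SLA-3): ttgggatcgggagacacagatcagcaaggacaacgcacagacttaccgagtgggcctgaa
A_72_P517623 (SLA-3): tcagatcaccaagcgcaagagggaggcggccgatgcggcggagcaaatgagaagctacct
A_72_P440391 (SLA-1): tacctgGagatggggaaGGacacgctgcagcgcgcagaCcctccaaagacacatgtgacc
A_72_P440386 (SLA-3): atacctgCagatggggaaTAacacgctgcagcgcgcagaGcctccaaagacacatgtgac
A_72_P683231 (SLA-3): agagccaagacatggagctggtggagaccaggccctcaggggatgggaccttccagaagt
A_72_P262732 (SLA-1): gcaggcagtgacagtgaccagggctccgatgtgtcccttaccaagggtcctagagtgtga

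The junction pair overlaps by 59 bases with 4 differences, which are G7C, G18T, G19A and C39G with positions counted from 1 at the 5′ end of the SLA-1 probe. Matched through the transcripts that the files list for each probe, A_72_P440391 stands for SLA-1, SLA-2 and SLA-5, A_72_P440386 for SLA-2 and SLA-3, A_72_P683231 for SLA-1, SLA-2, SLA-3 and SLA-5, and A_72_P262732 for SLA-1 and SLA-2. A_72_P517623 listed SLA-3 alone. A_72_P625729 listed only a cDNA clone and no RefSeq transcript, and the same clone is listed for the SLA-1 probe A_72_P035616. No other probe of the array shared a run of 20 bases with A_72_P625729. Values of SLA-1 and SLA-3 are therefore given probe by probe, under the array's names, and the assignment to a single heavy chain gene is uncertain.

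Values are log2 signals minus the 75th percentile of the array, so that 0 is that percentile, and levels of different probes are not compared. Between 52.6% and 61.4% of spots were well above background on an array, no spot was saturated, and this share went with the slide. Each of the 3 slides held 1 ischemia and 1 control array, with ischemia and control always at their own positions, so that an effect of position cannot be told apart from group. Slide 1 held ischemia 2 and control 1, slide 2 held ischemia 3 and control 2, and slide 3 held ischemia 1 and control 3.

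Of the 37 member probes, 36 were bright enough to test, and 0 passed an adjusted p of 0.05 in limma, with Benjamini-Hochberg correction across the 25013 probes tested. Over the whole array 1 probe passed, or 0.00400%, and with slide as a block 0 passed, or 0.00%. At an unadjusted p under 0.05 there were 3 member probes, all named SLA-3, which is 8.33% of the members against a background of 6.30% of all probes. With slide as a block the members' count was again 3, against a background of 9.26%, so the members' share lay on either side of the background according to the fit. The groups did not overlap for 1 member probe, against a background of 10.9%. Both counts changed when single kidneys were left out. The unadjusted count was 1 without ischemia 1, without ischemia 2 or without control 1, and 5 without ischemia 3. The count of probes whose groups did not overlap was 3 without ischemia 1, 7 without ischemia 3, 5 without control 2 and 11 without control 3. A smaller group separates more easily on any probe, and the share over all probes with a kidney left out is not given here. These counts therefore cannot show whether the members depend on single kidneys. With arrays of whole cortex, fewer cells of a type and less RNA per cell cannot be told apart.

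The most divergent readings came from probes named SLA-3, a classical class I heavy chain. Among them is the α1 probe A_72_P625729, whose assignment to a gene is uncertain. It read 3.01, 3.27 and 2.62 in ischemia kidneys 1 to 3, against 0.60, 1.41 and -0.36 in control kidneys 1 to 3. All 3 ischemia kidneys lay above all 3 control kidneys, and the control kidneys were spread more widely. The means were 2.97 ± 0.33 in ischemia kidneys and 0.55 ± 0.89 in control kidneys (SD, n = 3 each), a difference of 2.42 ± 0.44 (SE) or 5.35-fold. The limma p was 0.000817 unadjusted and 0.384 adjusted, so the difference did not pass, and 50 of the 25013 probes reached an unadjusted p this small or smaller. Within slides 1, 2 and 3 the difference was 2.67, 1.21 and 3.38, and with slide as a block the adjusted p was 0.249.

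The α2 probe of the same gene name ran the other way. A_72_P517623 read 1.39, 1.63 and 2.63 in ischemia kidneys, against 3.62, 2.72 and 2.50 in control kidneys. Ischemia kidneys 1 and 2 lay below every control kidney, whereas ischemia 3 lay between control 2 and control 3. The difference was -1.06 ± 0.42 (SE), with a limma adjusted p of 0.758 and 0.0371 before adjustment. Within slides 1 and 3 it was -1.99 and -1.11, but within slide 2 it was -0.09.

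Another SLA-3 probe, A_72_P625308, read 3.27, 3.07 and 4.38 in ischemia kidneys, against 5.25, 4.37 and 4.44 in control kidneys. Its difference was -1.11 ± 0.41 (SE), with a limma adjusted p of 0.748 and 0.0281 before adjustment, and ischemia 3 again lay among the control kidneys. This probe shares 42 bases with another SLA-3 probe, A_72_P682906, which adds the 18 bases ggcaatggaccatctcca before the shared run, while A_72_P625308 adds the 18 bases gccgaggaaacacaggag after it. The overlapping neighbour gave different values, 5.90, 5.70 and 5.65 in ischemia kidneys, against 5.45, 6.39 and 4.74 in control kidneys, with a difference of 0.22 ± 0.40 (SE). In this pair the ischemia kidneys agreed closely on one probe, with an SD of 0.13, and spread over an SD of 0.71 on the other.

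At the α2 and α3 junction the SLA-3 probe A_72_P440386 read 2.30, 2.52 and 3.19 in ischemia kidneys, against 3.84, 3.17 and 2.98 in control kidneys, a difference of -0.66 ± 0.33 (SE). Its SLA-1 counterpart A_72_P440391 read 3.47, 3.78 and 4.19 in ischemia kidneys, against 4.59, 4.20 and 3.75 in control kidneys, a difference of -0.37 ± 0.29 (SE). On both probes ischemia 3 was the highest ischemia kidney and control 1 the highest of all. The remaining SLA-3 probes had differences of -0.29 ± 0.29 (A_72_P683231, α3), -0.21 ± 0.25 (A_72_P649741) and -0.32 ± 0.22 (A_72_P515992) (SE), with adjusted p of 0.907 to 0.944.

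SLA-1, the other classical heavy chain measured, was represented by 3 probes with differences below 0. A_72_P035616 read 6.50, 6.45 and 7.48 in ischemia kidneys, against 7.70, 7.21 and 7.76 in control kidneys. Here too ischemia 3 lay within the control range and the other ischemia kidneys below it. The difference was -0.75 ± 0.33 (SE), with a 95% interval of -1.52 to 0.03 and an adjusted p of 0.816. The cytoplasmic tail probe A_72_P262732 had a difference of -0.28 ± 0.28 (SE), and its values of 5.47 to 5.95 in ischemia kidneys overlapped those of 5.49 to 6.38 in control kidneys.

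**Figure D1:**
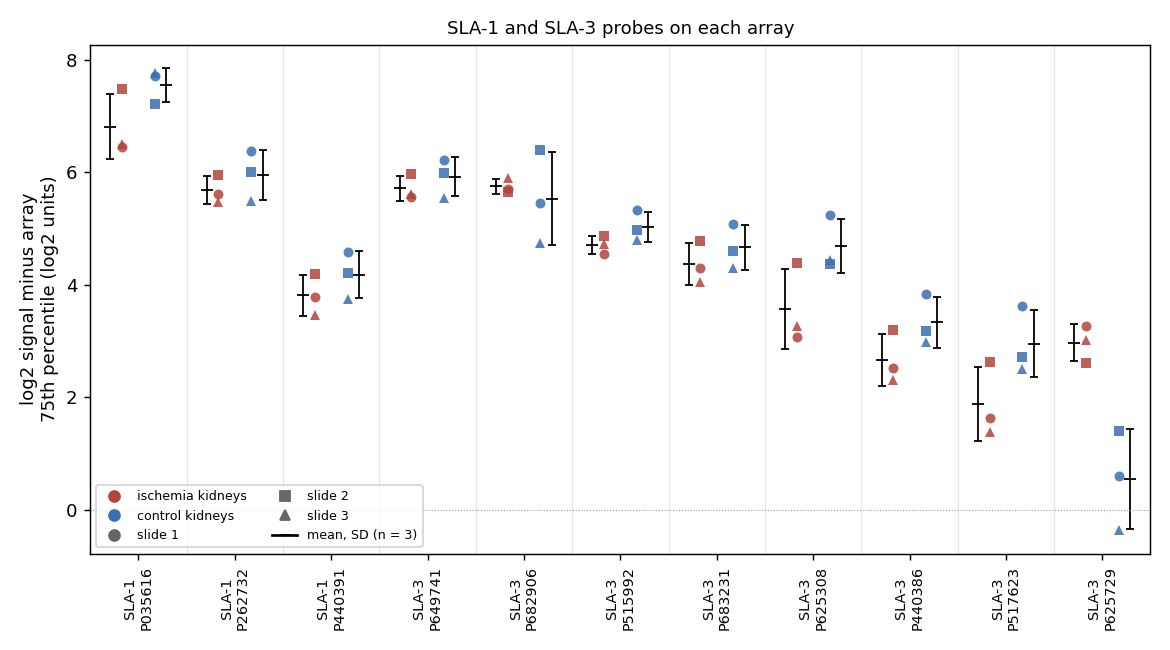
Level of each SLA-1 and SLA-3 probe on every array, as log2 signal minus the array's 75th percentile, with ischemia kidneys at the left and control kidneys at the right of each probe, marker shapes for slides and bars for mean and SD (n = 3 each). A_72_P625729 is the 1 probe whose groups do not overlap, and on 9 of the 11 probes ischemia 3 is the highest ischemia kidney.

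Across both heavy chain genes, 9 of 11 probes had a difference below 0 and 2 had one above 0. Within slide 1, 9 of 11 probes were lower in the ischemia kidney, with differences of -2.18 to 2.67, and within slide 3 it was 8 of 11, with -1.26 to 3.38. Within slide 2 the count was 6 of 11, and 8 of the 11 differences there were smaller than 0.2 in size. The 2 SLA-3 probes that differed by more than that on slide 2 were A_72_P625729 at 1.21 and A_72_P682906 at -0.74, along with SLA-1 probe A_72_P035616 at 0.27.

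The disagreement between SLA-3 probes was wide for this array. From -1.11 to 2.42, its 8 probes spanned 3.53 log2 units, the widest span among the 1046 genes with at least 3 tested probes. The next gene spanned 2.33, the 95th percentile was 0.75 and the median 0.21. The top rank of SLA-3 rests on A_72_P625729, whose assignment to a gene is uncertain. Without that probe the SLA-3 differences ran from -1.11 to 0.22, a narrower span than that of the next gene. SLA-1 spanned 0.47 over 3 probes, wider than all but 14.9% of those genes. B2M spanned 0.31 over 10 probes, exceeded by 32.4% of those genes, and SLA-DRA 0.23 over 7, exceeded by 44.4%. A gene with more probes has more chance of a wide span, and the number of probes was not matched.

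**Figure D2:**
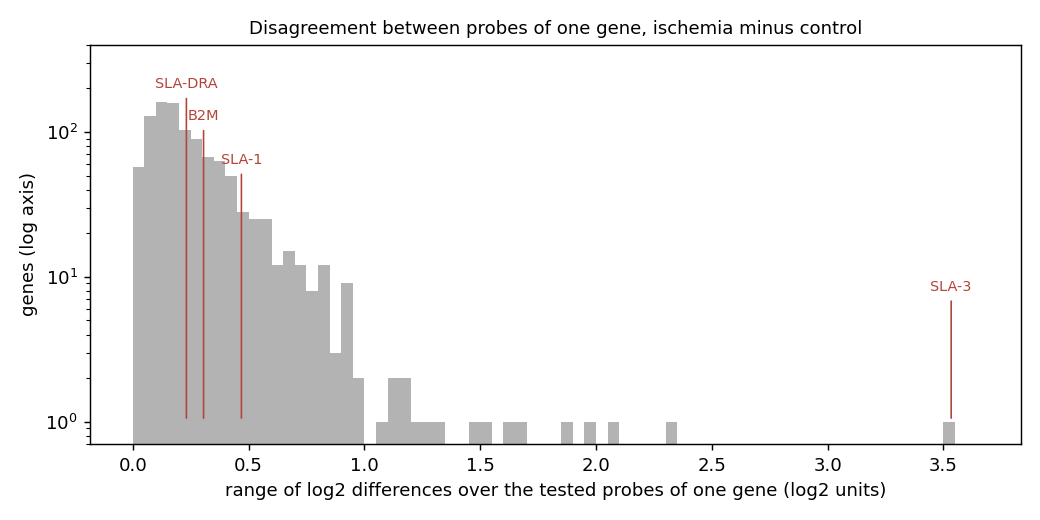
Histogram, with a log vertical axis, of the span between the lowest and highest log2 difference (ischemia minus control) over the tested probes of a gene, for the 1046 genes with 3 or more. SLA-3 stands at 3.53, beyond the next gene at 2.33, while SLA-1, B2M and SLA-DRA lie at 0.47, 0.31 and 0.23. The place of SLA-3 beyond the next gene rests on A_72_P625729, a probe of uncertain gene.

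A further class I probe lies outside the rule and was chosen after its values were seen. A_72_P414198, described only as an MHC class I antigen, read 1.08, 0.96 and 0.65 in ischemia kidneys, against -0.28, 0.82 and -0.59 in control kidneys. Its difference was 0.91 ± 0.37 (SE), with a limma adjusted p of 0.778 and 0.0431 before adjustment, and control 2 lay among the ischemia kidneys. As on A_72_P625729, control 2 was the highest and control 3 the lowest control kidney. The same held on A_72_P682906, whose difference was only 0.22 ± 0.40 (SE).

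B2M, the light chain that every class I heavy chain needs to reach the cell surface, had probes whose differences lay closer together. Its representative probe A_72_P441589 read 7.50, 7.71 and 7.34 in ischemia kidneys, against 7.70, 7.46 and 7.28 in control kidneys. The groups overlapped throughout. The difference was 0.04 ± 0.21 (SE), and its 95% interval of -0.46 to 0.53 leaves room for a change of either sign within those bounds. Differences of all 10 B2M probes lay between -0.19 and 0.12, 4 above 0 and 6 below it, with adjusted p from 0.941 to 0.994. The sign went largely with the transcript listed for the probe, but every difference was smaller than its SE. The RefSeq table (Sscrofa11.1) lists 2 genes named B2M, and probes were not separated between them.

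TAP1, a subunit of the peptide transporter, had 2 probes. The representative probe A_72_P223837 read -1.02, -0.73 and -0.79 in ischemia kidneys, against -0.38, -0.95 and -1.33 in control kidneys, a difference of 0.04 ± 0.28 (SE). The second, A_72_P172206, had a difference of -0.32 ± 0.38 (SE), with ischemia 1 the lowest of its 6 values at -4.56. Both were well above background on all 6 arrays. For TAP2, the partner subunit, 2 probes matched by description gave differences of 0.31 ± 0.21 (A_72_P510149) and 0.16 ± 0.24 (A_72_P390538), with adjusted p of 0.907 and 0.948.

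With 1 probe per gene, the median difference of the 4 class I members was -0.09, beside -0.04 over all probes tested. Within slides 1, 2 and 3 the same median was -0.50, 0.07 and 0.14.

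The class II members differed less between the groups than the heavy chain probes did, though this contrast was not tested. It was not a contrast between the classes, because the 12 class I probes of B2M and TAP1 also had small differences, of -0.32 to 0.12. All 13 tested class II probes had overlapping groups, with differences of -0.13 to 0.46 and unadjusted p of 0.159 or more. The median over the 4 genes was -0.01, and within slides 1, 2 and 3 it was -0.28, 0.39 and -0.19.

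SLA-DRA encodes the nearly invariant alpha chain of the main class II heterodimer, and its 7 probes gave differences of -0.01 to 0.23. A_72_P176171 read 5.15, 5.73 and 5.98 in ischemia kidneys, against 5.75, 5.39 and 5.60 in control kidneys, a difference of 0.04 ± 0.26 (SE) with a 95% interval of -0.58 to 0.66. The widest difference was that of A_72_P683574, at 0.23 ± 0.22 (SE), where ischemia kidneys read 5.25, 5.71 and 5.88 against 5.43, 5.38 and 5.34 in control kidneys. On that probe ischemia kidneys 2 and 3 lay above all control kidneys and ischemia 1 below them. On all 7 probes ischemia 3 was the highest and ischemia 1 the lowest ischemia kidney.

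CD74, the invariant chain that fills the class II groove until the endosome, followed the same order. A_72_P223292 read 2.11, 2.61 and 2.88 in ischemia kidneys, against 3.04, 2.56 and 2.38 in control kidneys, a difference of -0.13 ± 0.28 (SE). Its second probe, A_72_P796773, gave -0.02 ± 0.32 (SE). Ischemia 1 was the lowest of the 6 kidneys and control 1 the highest on both.

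SLA-DMB is a subunit of the class II-like molecule that exchanges the CD74 remnant for peptide. Its probe A_72_P375073 read 2.08, 2.48 and 2.72 in ischemia kidneys, against 2.61, 2.27 and 2.20 in control kidneys, a difference of 0.07 ± 0.24 (SE). A_72_P629649 gave 0.26 ± 0.27 (SE). Neither difference exceeded its error.

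SLA-DOB, a subunit of the molecule that restrains that exchange and is known mainly from B cells, had 3 probes. A_72_P300459, well above background on all 6 arrays, read -3.18, -2.64 and -2.85 in ischemia kidneys, against -2.03, -3.05 and -3.43 in control kidneys, a difference of -0.06 ± 0.37 (SE). A_72_P634856, well above background on 3 ischemia arrays and 2 control arrays, read -3.06, -2.55 and -2.91 in ischemia kidneys, against -3.78, -2.82 and -3.28 in control kidneys. It had a difference of 0.46 ± 0.29 (SE), within a 95% interval of -0.23 to 1.14. The last SLA-DOB probe, A_72_P440006, was at background on every array (not well above it) and was not tested.

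**Figure D3:**
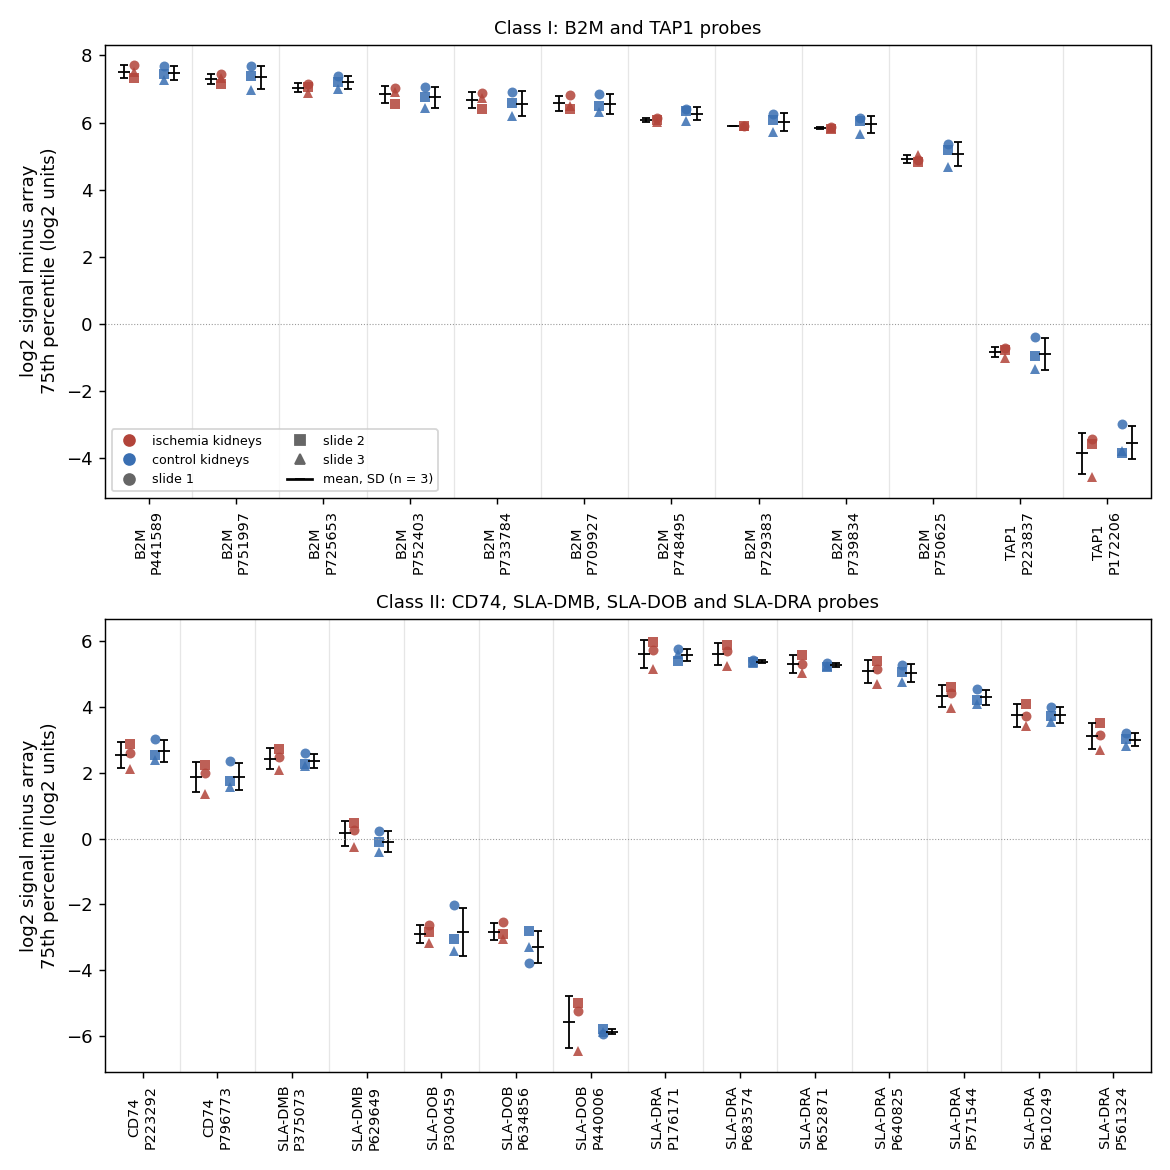
Levels of the B2M and TAP1 probes (upper panel) and of the class II probes (lower panel) on every array, as log2 signal minus the array's 75th percentile, with ischemia kidneys at the left, control kidneys at the right, marker shapes for slides and bars for mean and SD (n = 3 each). The groups overlap for every tested probe shown, and among ischemia kidneys ischemia 1 is the lowest on all 13 tested class II probes.

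Between kidneys of 1 group the class II probes moved together. Ischemia 1 was the lowest ischemia kidney on 13 of 13 tested probes, ischemia 3 the highest on 11, and control 1 the highest control kidney on 12. These probes cover only 4 genes, and 7 of them are SLA-DRA probes, some of which share bases. The share of all probes with this order is not given, so the counts cannot show a trait of class II. The mean of the 4 class II genes, each centred on its own mean, was -0.39, 0.11 and 0.25 in ischemia kidneys, against 0.41, -0.14 and -0.24 in control kidneys. For class I the same mean was -0.26, -0.16 and 0.09 in ischemia kidneys, against 0.40, 0.02 and -0.10 in control kidneys. On these means control 1 was the highest kidney in both classes, and ischemia 1, which shares slide 3 with control 3, the lowest. Neither part of class I had ischemia 1 lowest. The heavy chains were lowest in ischemia 2, at -0.49 against -0.45 in ischemia 1. B2M and TAP1 were lowest in control 3, at -0.34 against -0.07 in ischemia 1. Of the 23 class I probes, 9 had ischemia 1 as the lowest ischemia kidney. The log2 75th percentile subtracted was 8.71 on ischemia 1 and 7.94 to 8.20 on the other arrays. The part of this scaling in the order of the kidneys was not tested.

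**Figure D4:**
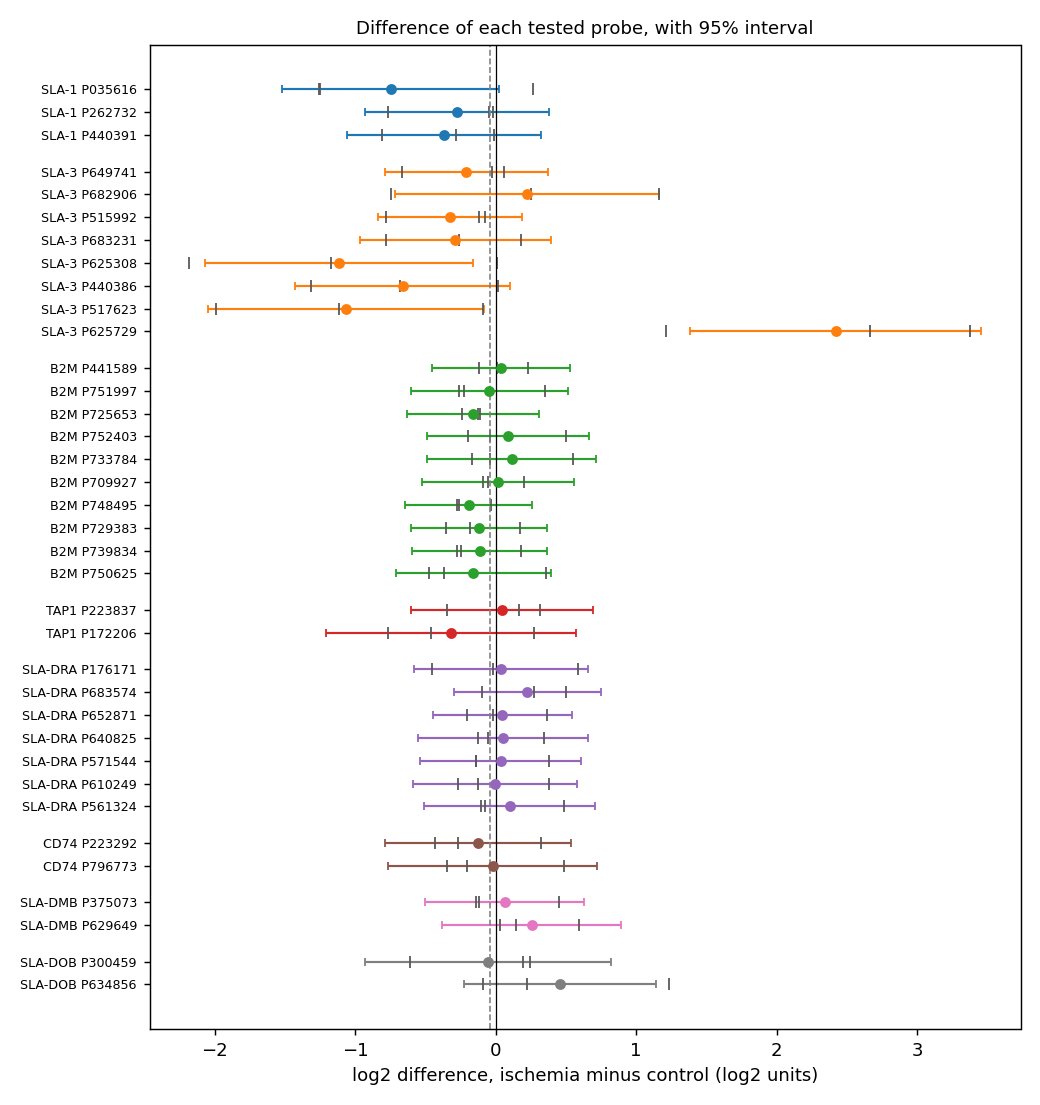
Log2 difference, ischemia minus control, of each of the 36 tested member probes, with its 95% interval from limma as a bar and the differences within slides 1, 2 and 3 as ticks; the dashed line is the median of all probes tested, -0.04. Intervals of the 25 probes outside SLA-1 and SLA-3 all include 0, while A_72_P625729 lies at 2.42 and A_72_P625308 at -1.11.

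Genes around the members were read from lists of the pathway, with 1 probe per gene. In peptide supply and loading for class I, 9 of 15 genes were tested, 0 passed in either direction, and the median difference was 0.16 with 8 genes above 0. PSME2, a subunit of the proteasome activator, read 4.24, 4.75 and 3.33 in ischemia kidneys, against 3.57, 3.49 and 2.99 in control kidneys, a difference of 0.76 ± 0.38 (SE; limma adjusted p = 0.854). PSMB10, an immunoproteasome subunit, had a difference of 0.52 ± 0.37 (SE). Among other class I genes 8 of 12 were tested and 0 passed, with a median of -0.02, led by HFE at -0.42 ± 0.30 and SLA-5 at -0.34 ± 0.28 (SE).

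For class II, 12 of 15 further genes of the molecules and their peptide supply were tested and 0 passed, with a median difference of -0.16 and 9 genes below 0. CTSH, a lysosomal cysteine protease, read 4.85, 5.02 and 4.38 in ischemia kidneys, against 5.76, 5.25 and 5.10 in control kidneys. Its groups did not overlap, and the difference was -0.62 ± 0.27 (SE; limma adjusted p = 0.805). IFI30, which reduces disulfide bonds of antigens in lysosomes, gave -0.46 ± 0.22 (SE; limma adjusted p = 0.852), also with no overlap. In this list the groups did not overlap for 2 genes lower in ischemia kidneys and 1 higher, CTSS, another lysosomal protease, at 0.35, named after its values were seen. The background was 10.9% of all probes tested.

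Of the 14 regulators of MHC transcription, 7 were tested and 0 passed (median -0.09). CIITA, the master coactivator of class II genes, read -0.40, -0.43 and -0.45 in ischemia kidneys, against -0.33, -0.16 and -0.15 in control kidneys, a difference of -0.21 ± 0.18 (SE; limma adjusted p = 0.931) with no overlap. IRF1, a transcription factor of the interferon response, gave -0.34 ± 0.23 (SE). In interferon gamma signalling, which induces both MHC classes in many cells, 14 of 18 genes were tested, 0 passed and the median was 0.11. CXCL10, an interferon-induced chemokine, had a difference of 0.77 ± 0.29 (SE), with a limma adjusted p of 0.751. JAK2, a kinase associated with cytokine receptors, had one of 0.48 ± 0.21 (SE), and both genes showed no overlap. In that list the groups did not overlap for 2 genes higher and 2 lower in ischemia kidneys, against a background of 10.9% of all probes tested. Of 11 genes listed under costimulation, which include inhibitory ligands, 6 were tested, 0 passed and all 6 lay above 0 with a median of 0.35. Among them were CD86 at 0.45 ± 0.22 (SE), with no overlap, and the inhibitory ligand CD274 at 0.68 ± 0.40 (SE), whose mean level was only -4.57. CD86 was the 1 gene of these 6, and CIITA the 1 of the 7 tested regulators, whose groups did not overlap. That compares with a background of 10.9% of all probes tested.

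Cell type markers were summed per array on the linear scale, on which 1 is the array's 75th percentile. Macrophage and monocyte markers (6 of 12 tested) summed to 17.1 to 22.7 in ischemia kidneys and 12.5 to 15.4 in control kidneys, with 5 of 6 differences above 0, and CD163, a scavenger receptor, differed by 1.42 ± 0.32 (SE; limma adjusted p = 0.501). The T cell sum (9 genes on the array, 7 tested) was 1.70 to 2.54 in ischemia kidneys and 3.83 to 3.95 in control kidneys, and its largest gene was CD247, a T cell receptor signalling chain, at -1.33 ± 0.23 (SE; limma adjusted p = 0.378). Without CD247 the T cell sum was 0.784 to 1.15 in ischemia kidneys and 0.833 to 0.939 in control kidneys, which overlap, and of the 7 tested T cell genes 4 lay above 0 and 3 below, with a median difference of 0.02. Leaving out the largest gene was added after seeing the data. General leukocyte markers (3 tested) summed to 2.22 to 4.07 in ischemia kidneys and 2.80 to 3.69 in control kidneys. Dendritic cell markers (3 tested) summed to 11.42 to 17.72 in ischemia kidneys and 11.53 to 15.94 in control kidneys. Most of that sum was FSCN1, and without it the sum was 0.312 to 0.510 in ischemia kidneys and 0.343 to 0.434 in control kidneys. The 3 B cell markers on the array summed to 0.357 to 0.434 in ischemia kidneys and 0.377 to 0.469 in control kidneys.

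Endothelial markers (7 tested) summed to 28.9 to 40.7 in ischemia kidneys and 30.6 to 35.4 in control kidneys. Proximal tubule markers, from the main epithelium of the cortex, were well above background for 8 of 8 genes on all arrays, with a sum of 256 to 302 in ischemia kidneys and 379 to 553 in control kidneys. All 8 had a difference below 0, and 5 an unadjusted limma p under 0.05, against a background of 6.30% of all probes tested, with 0 passing adjustment. Other kidney markers (3 tested) summed to 24.8 to 53.2 in ischemia kidneys and 20.7 to 34.3 in control kidneys. Their largest gene was CALB1, and without it the sum was 7.30 to 9.63 in ischemia kidneys and 7.42 to 8.56 in control kidneys. The part of these cell markers in the members' values was not tested.

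By Pearson correlation over the 6 arrays with the mean of the class I members, the most similar of 3667 named genes were DHX32 (r = 0.993), UPK3A (0.982) and S100A14 (0.974). For class II they were NFKBIL1 (0.988), PSMB9 (0.972), a subunit of the immunoproteasome, and RPL29 (0.970). These values describe 6 arrays that share slides and scaling, and 46 and 48 genes exceeded 0.9 for class I and class II.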

How the data were processed

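Cy3 signals of renal cortex RNA were measured on 6 Agilent porcine arrays, 3 ischemia and 3 control. The deposited scanner files hold spot intensity, background-subtracted within each array by Agilent Feature Extraction 10.10.1.1 per the file headers (11.5.1.1 per the submitters' processing notes). Values in the table the authors deposited are log2, with column medians of 5.91 to 5.99. Its scale followed the log2 median spot signal, but its normalization and centring between arrays are not given in the sources used here, and it served as an alternative.

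Main values were log2 processed signal minus each array's 75th percentile, without control and outlier spots and averaged over replicate spots. Probes were tested where well above background on at least 3 of 6 arrays and with values on at least 5, with limma 3.58.1 in R 4.3.3 (lmFit, eBayes, two-sided) and Benjamini-Hochberg adjustment over 25013 probes. Differences are ischemia minus control, and intervals are 95%. A gene was represented by its brightest tested probe. The fit was tested on simulated data. Tables were handled in Python 3.11.15.

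The members, lists and alternatives were chosen with earlier results of these data known. Every member probe is reported. Other genes are named as the up to 2 of smallest p per list, and 3 per class by likeness, with some exceptions. CTSS and A_72_P414198 were named after their values were seen, and FSCN1 as the largest gene of its sum. The TAP2 probes were matched by description. Sequences are the files' own probe sequences. Probes were not placed on a genome. Sample numbers did not pair the groups (correlations of same-numbered deviations -0.348, -0.168 and -0.0496); arrays of 1 slide correlated at 0.342, 0.102 and 0.334. The labels state different pigs for all kidneys. An exact permutation test of 3 against 3 cannot go below 0.1 and was not used. Alternatives were median centring, quantile normalization, normexp (offset 50), the deposited table, other filters, outlier spots kept, a variance trend, weights per array, slide or sample number as a block, and each array left out.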

Additional observations from a re-analysis of the deposited data

How the results depend on the processing

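Under all 17 alternatives tried, 0 of the member probes passed an adjusted p of 0.05. The nearest was A_72_P625729 with array weights, whose estimation stopped before it converged, at a difference of 1.60 and an adjusted p of 0.0503; over its alternatives the adjusted p ran up to 0.869, and its difference without single arrays was 1.96 to 2.85. The count at an unadjusted p under 0.05, 3 in the main setting, was 5 with array weights and 1 to 5 with single arrays left out. The count of probes whose groups did not overlap, 1 in the main setting, was 2 after quantile normalization, 3 after normexp correction, 2 of 11 probes in the deposited table and 1 to 11 with single arrays left out. That last range has no background beside it, and smaller groups separate more easily. The replicate block left 0 probes called, 3 at an unadjusted p under 0.05, and medians of -0.09 for class I and -0.01 for class II. Over all alternatives these medians ranged from -0.29 to 0.06 and from -0.14 to 0.24, in each case less than 1 SD between kidneys from the main value. Median centring and the deposited table moved the median of all probes to 0.11 and 0.14, against -0.04 in the main setting, so signs near 0 have no weight: 22 of 36 probes changed sign somewhere. Of the 11 SLA-1 and SLA-3 probes 10 kept their sign under every alternative that measured them, the exception being A_72_P682906. The causes were not tested. With 3 kidneys a group, the number of arrays limits every value, and SLA-DOB probe A_72_P440006 could not be tested above background.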
